A study of Mus musculus with 3 samples.

Results

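The translation initiation and elongation factors were analysed in RNA-seq of E14 mouse embryonic stem cells (ESCs). Members were chosen by name alone, as every gene whose symbol begins with Eif2 to Eif6 or with Eef1 or Eef2, and 58 of the 23953 genes in the tables met this rule. They were then grouped by the complex that their protein belongs to, which gave 12 groups. The study asked which genes depend on the distal enhancer (DE) of *Oct4*, a pluripotency factor gene that is listed as *Pou5f1*.

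There were 3 libraries with 1 library per condition. The WT library carried no treatment by its labels. The library labelled Tam came from *Oct4* DE (−/−) cells after 48 h of 4-OH tamoxifen, and the library labelled DoxTam from such cells after 48 h of 4-OH tamoxifen together with doxycycline at 0.5 μg/ml. In these cells the DE was flanked by loxP sites, tamoxifen activated the recombinase CreERT2, and doxycycline induced a transgenic mouse *Oct4*. The cells were clones grown with LIF, and the labels list both inducible constructs for every library, WT included. The sources used here do not say whether WT was the parental line or an untreated floxed clone.

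Protein synthesis begins when eIF2, carrying GTP and the initiator tRNA, joins the small ribosomal subunit together with eIF3, and the eIF4F complex brings in a capped mRNA. After the start codon is found and eIF5B joins the large subunit, eEF1A delivers aminoacyl-tRNAs and eEF2 moves the ribosome along. Kinases that phosphorylate eIF2 and binding proteins that sequester eIF4E are the best known brakes on this process, and ESCs are known for a low rate of protein synthesis compared with their differentiated progeny. RNA levels, the only measure here, do not report phosphorylation or protein amount.

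Levels are FPKM, fragments scaled by the length of the gene and by the size of the library. The tables hold no fragment counts, so depth was read from the level of a single fragment and was about 10800000 fragments for WT, 5910000 for Tam and 6440000 for DoxTam. All 10 ESC markers were at 83.2 FPKM or more in every library, and the summed level of 6 trophectoderm markers was 5.16 FPKM in WT, 10.5 FPKM in Tam and 7.39 FPKM in DoxTam. *Pou5f1* was at 664 FPKM in WT, 529 FPKM in Tam and 458 FPKM in DoxTam. The library given doxycycline thus held the lowest level of the gene that doxycycline should induce, which goes against the labels. In Tam, where the enhancer of the gene should be deleted, the level was also inside 1.5-fold of WT (-0.33 on the log2 scale), so *Pou5f1* does not check that label either, and "Tam" and "DoxTam" name libraries by their labels throughout. By qPCR, in contrast, the paper reports that total *Oct4* was almost lost in (−/−) cells given tamoxifen alone. It reports a level similar to wild type once doxycycline was added. The 3 libraries do not show that pattern. No difference between libraries has a replicate check, and none was tested.

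By their median level the factor genes were more abundant than most genes of these cells, though this does not hold for each of them. In WT 35 of the 58 were at 50 FPKM or more. The median level of the 58 genes was 72.3 FPKM in WT, 67.2 FPKM in Tam and 73.0 FPKM in DoxTam, against 10.9, 10.7 and 11.0 FPKM for all genes at 1 FPKM or more. Their summed level was 10670 FPKM in WT, 10879 FPKM in Tam and 10826 FPKM in DoxTam. These sums made up 2.70%, 2.66% and 2.74% of all FPKM outside small RNA genes, so the total given to these genes was nearly equal in the 3 libraries. *Eef1a1* alone held 3056 FPKM of the sum in WT, 3586 FPKM in Tam and 3638 FPKM in DoxTam. The near equality thus rests on *Eef1a1*, which exceeded its WT level by more than the sum did in both treated libraries. The sum of the other members was therefore below WT in both, on the deposited scale.

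**Figure D1:**
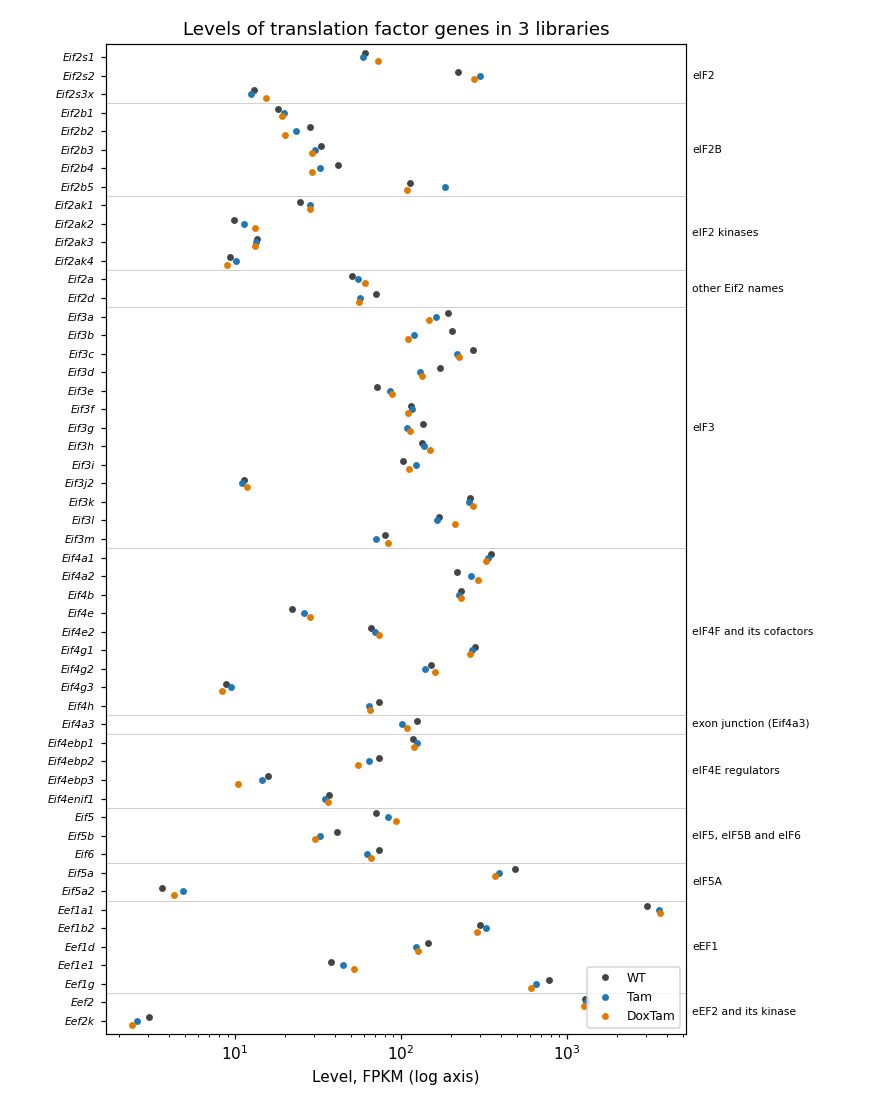
Level of each of the 53 factor genes that reached 1 FPKM (x axis, FPKM on a log axis), ordered by factor complex (right margin), with 1 point for each of the 3 libraries. Levels span from 2.39 FPKM for *Eef2k* to 3638 FPKM for *Eef1a1*, and for most genes the points of the 3 libraries lie close together.

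Of the 58 genes, 53 reached 1 FPKM and 5 stayed below it in all libraries. The 5 low genes were copies or relatives of more abundant factor genes. *Eef1a2*, the muscle and neuron form of eEF1A, was at 0.0693 FPKM in WT, 0.0790 FPKM in Tam and 0.182 FPKM in DoxTam. *Eif4e1b*, an oocyte form of the cap-binding protein, had 0.129 FPKM in WT, 0.258 FPKM in Tam and was listed at 0 in DoxTam. *Eif4e3*, another cap-binding protein gene, was at 0.548 FPKM in WT, 0.465 FPKM in Tam and 0.548 FPKM in DoxTam. The row shared by *Eif3j1* and *Eif3j2* was at 0.301 FPKM in WT, 0.551 FPKM in Tam and 0.529 FPKM in DoxTam. *Eif2s3y*, the copy of the eIF2γ gene on chromosome Y, had a level of 0.107 FPKM in WT and was listed at 0 in both treated libraries, whereas its partner on chromosome X, *Eif2s3x*, was at 13.0, 12.4 and 15.3 FPKM in WT, Tam and DoxTam. At these depths the 5 genes rest on too few fragments for a fold.

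Folds were computed as log2 of the ratio of FPKM + 1, which understates changes of low genes. A gene was called higher or lower when it reached 1.5-fold (0.58 on the log2 scale) and 1 FPKM in at least 1 of the libraries compared. In Tam against WT, *Eif2b5* was higher and *Eif3b* was lower, and the other 51 of 53 genes lay inside 1.5-fold. The background was 6.98% higher and 3.59% lower among 12705 genes, so 1 of 53 in each direction was below the share of all genes. In DoxTam against WT, 0 of 53 were higher and 1 was lower, again *Eif3b*, beside a background of 4.12% higher and 5.78% lower among 12384 genes. At 2-fold 0 of 53 were called in either direction, beside 2.13% higher and 0.732% lower of all genes in Tam and 0.711% and 1.04% in DoxTam. The WT library is shared by both comparisons, so a WT value that is off enters each of them.

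In DoxTam the middle of the members' folds was spread much like that of all genes, and in Tam a larger share of members lay near 0. The median log2 fold of the 53 genes was -0.04 in Tam and -0.04 in DoxTam, beside 0.02 and -0.0028 for all genes. The middle 50% of log2 folds ran from -0.24 to 0.13 over members and from -0.19 to 0.24 over all genes in Tam, and from -0.25 to 0.18 and from -0.24 to 0.23 in DoxTam. Within 0.25 of 0 on the log2 scale were 69.8% of members and 56.1% of all genes in Tam, and 56.6% of members and 52.4% of all genes in DoxTam. The members are more abundant than most genes, and among genes at 50 FPKM or more (a limit chosen after the members' levels were seen) the background was 7.37% higher and 5.99% lower in Tam (1 of 35 members each) and 6.31% higher and 8.18% lower in DoxTam (0 and 1 of 36). Among genes whose level reached 50 FPKM in any library the shares within 0.25 were 66.7% of 36 members beside 54.4% of all genes in Tam, and 52.8% beside 50.2% in DoxTam. The sets of all genes include small RNA genes, whose FPKM is uncertain. Of the 1816 genes of this last set in Tam, 1616 had a coding transcript with a GC value. Shares from 50 FPKM up without small RNA genes were not computed.

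**Figure D2:**
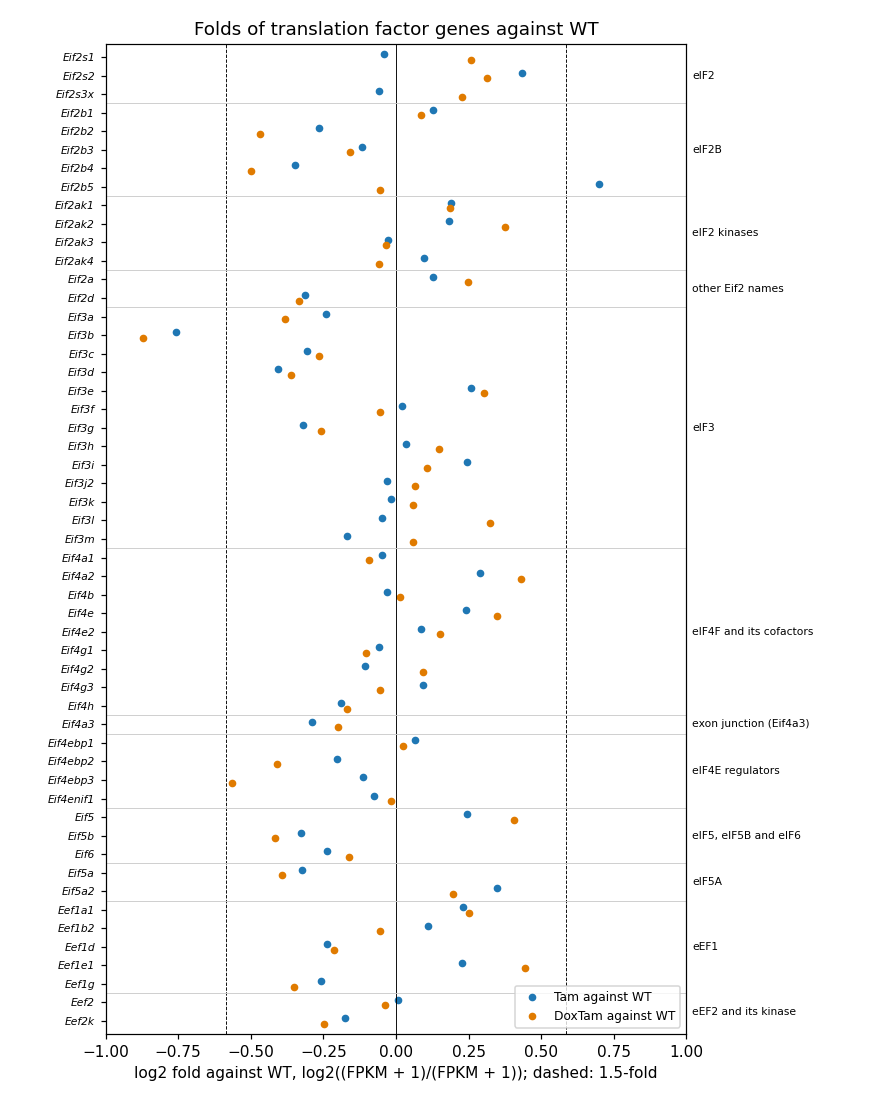
Log2 fold against WT (x axis, log2 of the ratio of FPKM + 1) of the 53 factor genes, ordered by complex, for Tam (blue) and DoxTam (orange), each 1 library against the same WT library, with 1.5-fold marked by dashed lines. *Eif3b* lies past the lower line in both comparisons (-0.76 and -0.87), *Eif2b5* past the upper line in Tam alone (0.70), and all other points are inside.

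The directions of small folds depend on the scale. Of all FPKM, small RNA genes held 665019 of 1059850 in WT, 549269 of 957648 in Tam and 429343 of 824758 in DoxTam. The total over all genes is thus mostly that of small RNA genes, whose FPKM is uncertain. Rescaling each library to the same total moved the median log2 fold of all genes to 0.15 in Tam and 0.32 in DoxTam, and the members' medians to 0.10 and 0.31. Under it 13 of the 31 genes below WT in Tam, and 20 of the 29 in DoxTam, turned above WT. The 9 that remained below WT in DoxTam were *Eif2b2*, *Eif2b4*, *Eif3a*, *Eif3b*, *Eif3d*, *Eif4ebp2*, *Eif4ebp3*, *Eif5a* and *Eif5b*. With a total taken over all but the small RNA genes, all-gene medians were -0.02 and -0.0046, no gene below WT turned above it and 3 of the 22 genes above WT in Tam turned below it. Directions given for single genes below hold for the deposited scale.

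The members' folds went with the GC content of their transcripts. Across 52 members with a GC value, the Spearman correlation of log2 fold with GC content was -0.56 in Tam and -0.67 in DoxTam, beside -0.39 over 11301 genes and -0.61 over 11055 genes, where genes of 1 pair of libraries are not independent replicates. The 26 members with the lower GC content had a median log2 fold of 0.10 in Tam and 0.17 in DoxTam, and the 26 with the higher GC content of -0.20 and -0.21. Folds with this trend over all genes removed are given below as GC-adjusted. The part of GC content in these folds was not tested beyond this adjustment.

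**Figure D3:**
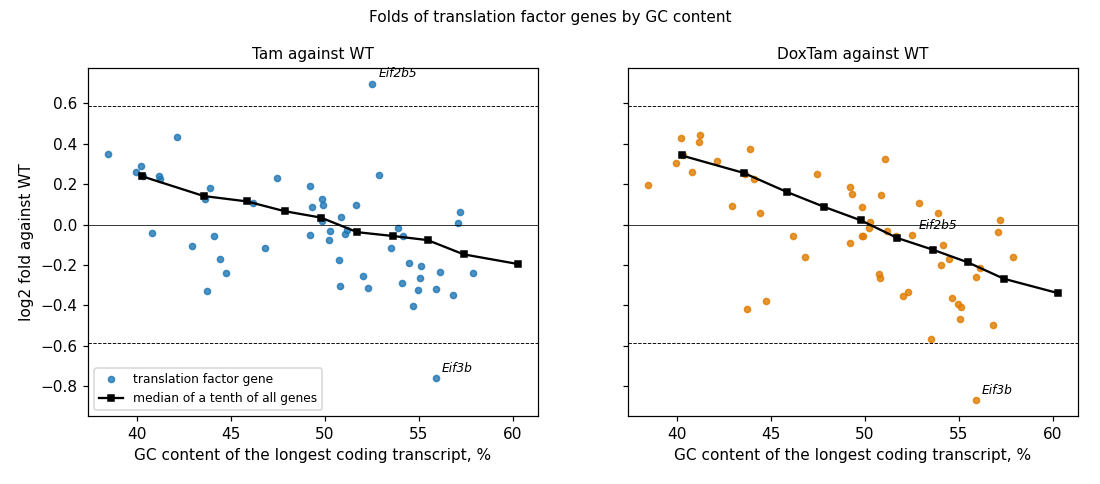
Log2 fold against WT (y axis) by GC content of the longest coding transcript (x axis, %), for Tam (left) and DoxTam (right), with members as coloured points, medians of 10 equal groups of all genes as black squares and 1.5-fold as dashed lines. Members follow the all-gene medians downward from low to high GC content, and *Eif3b* lies below the line of medians in both panels.

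eIF3 is the largest initiation factor, a scaffold of the small subunit built on the EIF3A, EIF3B and EIF3C proteins. *Eif3b* encodes the subunit that holds EIF3G and EIF3I on the ribosome. *Eif3b* lies on the plus strand of chromosome 5 (mm9, 140895259 to 140919314) with 0 overlapping annotated genes. It was at 202 FPKM in WT, 119 FPKM in Tam and 110 FPKM in DoxTam, so the treated libraries stood at 58.9% and 54.5% of WT. The log2 folds were -0.76 in Tam and -0.87 in DoxTam, with an approximate counting error of 0.04 for each, which leaves out all variation between cultures. The GC-adjusted log2 folds were -0.66 and -0.67, still past 1.5-fold, whereas after rescaling to the same total they were -0.61 and -0.51, the last of which is inside it.

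No other eIF3 gene reached 1.5-fold. In WT *Eif3b* ranked 3 among 12 subunit genes, in Tam it ranked 8 and in DoxTam 10. Within a library, where scaling cancels, *Eif3b* over the median of the other subunits was 1.48 in WT, 0.916 in Tam and 0.821 in DoxTam. Its partners differed from it and from each other, since *Eif3g* was at 136, 109 and 114 FPKM in WT, Tam and DoxTam, and *Eif3i* at 103, 122 and 111 FPKM. Of 13 eIF3 genes kept, 9 were below WT in Tam and 6 in DoxTam, with medians of -0.05 and 0.06.

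*Eif3a*, 1 of the scaffold genes named above, was at 192 FPKM in WT, 162 FPKM in Tam and 147 FPKM in DoxTam. Its log2 folds were -0.24 and -0.38. Its transcript is poor in GC (44.7%), and the GC-adjusted folds were further from 0, at -0.36 and -0.58, the last just inside 1.5-fold. *Eif3c*, the gene with the highest WT level in the group, was at 270 FPKM in WT, 218 FPKM in Tam and 224 FPKM in DoxTam. *Eif3d*, whose protein can itself bind the cap, was at 172 FPKM in WT, 130 FPKM in Tam and 134 FPKM in DoxTam (-0.41 and -0.36). These 3 genes were below WT in both treated libraries without reaching 1.5-fold, and *Eif3c* turned above WT in DoxTam after rescaling to the same total.

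*Eif3g* was also below WT in both (-0.32 and -0.26), and the remaining subunit genes were not. *Eif3e* was at 71.2 FPKM in WT, 85.5 FPKM in Tam and 88.2 FPKM in DoxTam, and its log2 folds of 0.26 and 0.30 were 0.02 and -0.05 once GC-adjusted. *Eif3l* was at 170 FPKM in WT, 164 FPKM in Tam and 213 FPKM in DoxTam, the highest fold of the group in DoxTam (0.32, and 0.36 GC-adjusted). *Eif3k* at 260, 257 and 270 FPKM and *Eif3f* at 114, 116 and 110 FPKM hardly differed between the libraries. *Eif3j2*, which has a locus in common with the row of *Eif3j1* and *Eif3j2* and may share reads with it, was at 11.2, 11.0 and 11.8 FPKM, far below the rest.

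**Figure D4:**
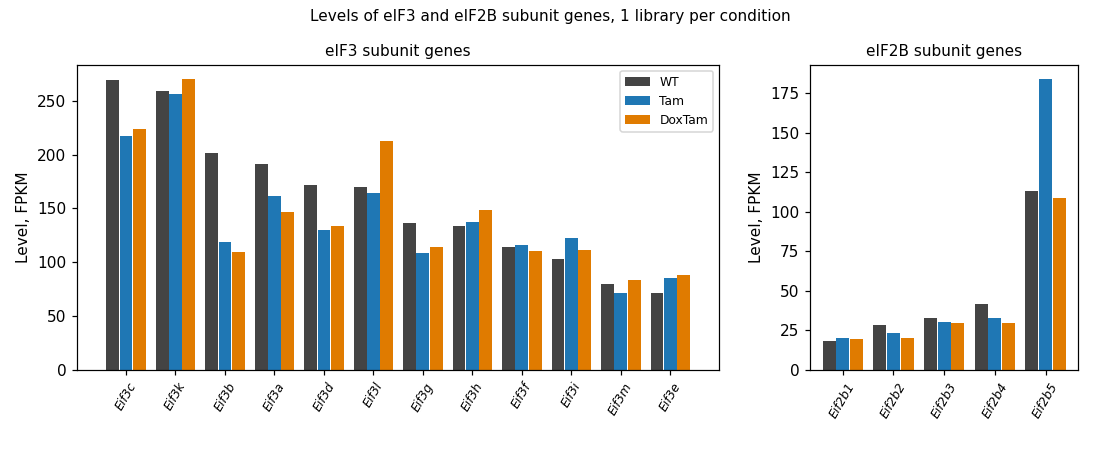
Level (y axis, FPKM from 0) of 12 eIF3 subunit genes (left, ordered by WT level) and 5 eIF2B subunit genes (right) in WT, Tam and DoxTam, 1 bar per library with no error bars since each condition has 1 library. *Eif3b* is at 202 FPKM in WT against 119 and 110 FPKM, and *Eif2b5* is at 184 FPKM in Tam against 113 and 109 FPKM in the other libraries.

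eIF2B is the exchange factor that returns eIF2 to its GTP form, and *Eif2b5* encodes its catalytic ε subunit. *Eif2b5* lies on the plus strand of chromosome 16 (mm9, 20498890 to 20510028) with 0 overlapping annotated genes. It was at 113 FPKM in WT, 184 FPKM in Tam and 109 FPKM in DoxTam, so Tam stood apart and DoxTam lay beside WT. The log2 fold was 0.70 in Tam (counting error 0.03) and -0.05 in DoxTam, and the GC-adjusted values were 0.73 and 0.03. Rescaling to the same total gave 0.84 and 0.31.

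No other eIF2B gene reached 1.5-fold. *Eif2b1*, the α subunit gene, was at 18.0, 19.8 and 19.2 FPKM in WT, Tam and DoxTam. *Eif2b4*, the δ subunit gene, was at 41.7 FPKM in WT, 32.5 FPKM in Tam and 29.2 FPKM in DoxTam (-0.35 and -0.50, and -0.22 and -0.26 GC-adjusted), and it overlaps *Snx17* on the other strand. The remaining subunit genes were *Eif2b2* (28.1, 23.2 and 20.0 FPKM) and *Eif2b3* (32.8, 30.2 and 29.2 FPKM). *Eif2b5* over the median of the other subunit genes was 3.71 in WT, 6.90 in Tam and 4.42 in DoxTam.

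The 3 genes of eIF2 itself differed widely in level. *Eif2s2*, the β subunit gene, was at 221 FPKM in WT, 300 FPKM in Tam and 275 FPKM in DoxTam, *Eif2s1*, the α subunit gene whose protein is the target of the eIF2 kinases, at 60.6, 58.9 and 72.7 FPKM, and *Eif2s3x* lowest. *Eif2s2* over *Eif2s1* was 3.65 in WT, 5.09 in Tam and 3.78 in DoxTam. The log2 folds of *Eif2s2* were 0.44 and 0.31, and 0.26 and 0.03 GC-adjusted.

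All 4 eIF2 kinase genes were present and inside 1.5-fold. *Eif2ak1* (HRI), the heme-regulated kinase, had the highest level, at 24.6 FPKM in WT, 28.3 FPKM in Tam and 28.1 FPKM in DoxTam. *Eif2ak2* (PKR), which senses double-stranded RNA, was at 9.88 FPKM in WT, 11.4 FPKM in Tam and 13.1 FPKM in DoxTam (0.18 and 0.38, and 0.05 and 0.15 GC-adjusted). *Eif2ak3* (PERK), the kinase of endoplasmic reticulum stress, was at 13.6, 13.3 and 13.2 FPKM. *Eif2ak4* (GCN2), the amino acid sensor, was at 9.34, 10.1 and 8.94 FPKM. The alternative initiation factor genes *Eif2a* (50.7, 55.4 and 60.4 FPKM) and *Eif2d* (70.2, 56.3 and 55.5 FPKM) also lay inside the limit, with *Eif2d* at -0.31 and -0.33.

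eIF4F joins the cap-binding protein eIF4E, the helicase eIF4A and the scaffold eIF4G. *Eif4a1* had the highest WT level of the group, at 346 FPKM in WT, 335 FPKM in Tam and 325 FPKM in DoxTam, and its paralog *Eif4a2* was at 217, 265 and 292 FPKM. The ratio of *Eif4a2* to *Eif4a1* was thus 0.625 in WT, 0.792 in Tam and 0.900 in DoxTam. The *Eif4a2* transcript is poorer in GC (40.2%) than that of *Eif4a1* (49.2%), and the log2 folds of *Eif4a2*, 0.29 and 0.43, were 0.06 and 0.09 GC-adjusted. *Eif4a2* also overlaps *Rfc4* on the other strand, and the sources used here do not say whether strand was used in counting. *Eif4a3*, a helicase of the exon junction complex, was at 124, 102 and 108 FPKM.

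*Eif4e* was lower than *Eif4a1* and *Eif4g1*, the most abundant genes of the other eIF4F parts, at 21.9 FPKM in WT, 26.1 FPKM in Tam and 28.1 FPKM in DoxTam, while its relative *Eif4e2*, a cap-binding repressor, was at 65.9, 70.0 and 73.3 FPKM. The scaffold gene *Eif4g1* was at 279, 268 and 260 FPKM, *Eif4g2*, which lacks the eIF4E site, at 151, 140 and 161 FPKM, and *Eif4g3* at 8.76, 9.42 and 8.39 FPKM. All 3 eIF4G genes lay within 0.11 of WT on the log2 scale. The cofactor gene *Eif4b* was at 229, 224 and 231 FPKM and *Eif4h* at 73.4, 64.3 and 65.2 FPKM.

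The eIF4E-binding proteins compete with eIF4G for eIF4E until mTORC1 phosphorylates them. *Eif4ebp1* was at 118 FPKM in WT, 124 FPKM in Tam and 120 FPKM in DoxTam. *Eif4ebp2* was at 73.5, 63.7 and 55.1 FPKM (-0.20 and -0.41). *Eif4ebp3* was at 15.8, 14.5 and 10.3 FPKM, and its log2 fold in DoxTam, -0.56, was the value nearest to the 1.5-fold limit from inside. It was -0.60 with a pseudocount of 0.1 FPKM, past the limit, and -0.45 GC-adjusted, with a counting error of 0.24 on its few fragments. *Eif4ebp3* also overlaps *Ankhd1* on the same strand and may share reads with it. The summed level of the 3 *Eif4ebp* genes over *Eif4e* was 9.49 in WT, 7.75 in Tam and 6.61 in DoxTam. This ratio is not GC-adjusted. The log2 folds of *Eif4e*, 0.24 in Tam and 0.35 in DoxTam, were 0.012 and 0.0059 GC-adjusted. GC-adjusted folds were 0.20 and 0.28 for *Eif4ebp1*, -0.13 and -0.24 for *Eif4ebp2*, and -0.06 and -0.45 for *Eif4ebp3*. *Eif4enif1*, which imports eIF4E into the nucleus, was at 36.6, 34.7 and 36.1 FPKM.

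Late initiation genes diverged. *Eif5*, the GTPase activator of eIF2, was at 70.4 FPKM in WT, 83.4 FPKM in Tam and 93.6 FPKM in DoxTam, with log2 folds of 0.24 and 0.41 that were 0.04 and 0.09 GC-adjusted. *Eif5b*, the GTPase of subunit joining, was at 41.0 FPKM in WT, 32.4 FPKM in Tam and 30.4 FPKM in DoxTam. Its log2 folds of -0.33 and -0.42 were -0.46 and -0.65 GC-adjusted, so that in DoxTam it passed 1.5-fold under that adjustment alone. Both transcripts are poor in GC (41.1% for *Eif5* and 43.7% for *Eif5b*), and their folds lay on opposite sides of 0. *Eif6*, which keeps the ribosomal subunits apart, was at 73.4, 62.1 and 65.5 FPKM.

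eIF5A, the factor that carries hypusine and helps the ribosome past proline stretches, was encoded almost wholly by 1 of its genes. *Eif5a* was at 487 FPKM in WT, 389 FPKM in Tam and 371 FPKM in DoxTam (-0.32 and -0.39, and -0.25 and -0.23 GC-adjusted). *Eif5a2* was at 3.61, 4.87 and 4.28 FPKM. *Eif5a* over *Eif5a2* was 135 in WT, 79.9 in Tam and 86.6 in DoxTam, a ratio that rests on the low level of *Eif5a2*.

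The elongation factors held the highest levels of all members. *Eef1a1*, the main eEF1A gene of these cells, was at 3056 FPKM in WT, 3586 FPKM in Tam and 3638 FPKM in DoxTam (0.23 and 0.25), and *Eef2* at 1291, 1298 and 1258 FPKM (0.01 and -0.04). *Eef1a1* over *Eef2* was 2.37 in WT, 2.76 in Tam and 2.89 in DoxTam, a ratio that is not GC-adjusted. GC-adjusted log2 folds in Tam and DoxTam were 0.16 and 0.16 for *Eef1a1*, and 0.14 and 0.21 for *Eef2*. *Eef1a1* has many processed pseudogenes, so its reads may be shared with them and its level is uncertain.

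The exchange factor genes of eEF1A lay on both sides of WT. *Eef1b2*, the catalytic β subunit, was at 299, 323 and 288 FPKM, *Eef1g*, the γ subunit, at 779, 652 and 610 FPKM (-0.26 and -0.35), and *Eef1d*, the δ subunit, at 146, 124 and 126 FPKM. *Eef1e1* (AIMP3), a part of the tRNA synthetase complex, was at 38.0 FPKM in WT, 44.7 FPKM in Tam and 52.2 FPKM in DoxTam. Its log2 fold of 0.45 was the highest of the 53 genes in DoxTam and was 0.13 GC-adjusted. *Eef2k*, the kinase that inactivates eEF2, was low at 3.02, 2.56 and 2.39 FPKM.

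Many factor mRNAs belong to the TOP class, whose 5′ end starts with a C followed by a run of pyrimidines, through which mTORC1 controls their translation. The 9 members listed as TOP mRNAs (*Eef1a1*, *Eef1b2*, *Eef1d*, *Eef1g*, *Eef2*, *Eif3e*, *Eif3f*, *Eif3h*, *Eif4b*) had median log2 folds of 0.02 in Tam and -0.04 in DoxTam, beside -0.05 and -0.04 for the 44 other members kept, and 0 of 9 reached 1.5-fold. Beside the background of 6.98% higher and 3.59% lower in Tam and of 4.12% and 5.78% in DoxTam, a count of 0 among 9 genes is no result about them. RefSeq promoter entries (GRCm38.p6) were matched for 44 of 58 members and 5 of the 9. Each window runs from 10 bases before to 19 bases after the annotated start. Shown are the windows of all 5 matched TOP genes and of the 2 genes past 1.5-fold, since they set the starts of listed TOP mRNAs beside those of the genes that differed, with the longest run of a C followed by at least 4 bases C or T in capitals, on the strand of the gene.
Eef1a1: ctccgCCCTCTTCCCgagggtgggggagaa
Eef1b2: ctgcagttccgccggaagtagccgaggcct
Eef2: aaggccgggcgttgacgtcagcggtCTCTT
Eif3f: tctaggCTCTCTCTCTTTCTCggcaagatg
Eif4b: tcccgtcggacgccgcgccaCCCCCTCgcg
Eif2b5: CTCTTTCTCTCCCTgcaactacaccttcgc
Eif3b: ggcgcgcggtgaCTTCTgggagtcggaagc
These windows lie at chr9:78481705-78481734 (minus strand), chr1:63176821-63176850 (plus), chr10:81176621-81176650 (plus), chr7:108934405-108934434 (plus), chr15:102073763-102073792 (plus), chr16:20498807-20498836 (plus) and chr5:140419295-140419324 (plus). Of the 5 TOP genes 4 held a run, of 15 bases in *Eif3f*, 10 in *Eef1a1*, 7 in *Eif4b* and 5 in *Eef2*, and *Eef1b2* held none. The run of *Eif2b5* is 14 bases long in its window and that of *Eif3b* 5. The run of *Eef2* ends at the last base of its window, and that of *Eif2b5* begins at the first base. Both may therefore be longer than the window shows. Such a run is common, since 35.8% of all 32851 windows hold one, and so do 23 of the 59 windows of members (39.0%). A run in these letters is not evidence of a TOP mRNA.

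In DoxTam against Tam, the comparison of doxycycline added to tamoxifen by the labels, the factor genes lay closer together than in either comparison with WT. Of 53 genes 48 (90.6%) were within 0.25 on the log2 scale, beside 65.1% of all genes, which thus also lay closer together here than against WT. Among genes at 50 FPKM or more the shares were 91.7% of members and 74.0% of all genes, small RNA genes included. Called were 0 higher and 1 lower, *Eif2b5*, at 109 FPKM in DoxTam against 184 FPKM in Tam (-0.75), and the background was 2.09% higher and 5.74% lower among 12647 genes. From 50 FPKM up the same count was 0 and 1 of 36 members, beside 3.13% and 3.37% of all genes, and at 2-fold 0 of 53 were called, beside 0.459% and 1.98%. *Eif3l* had the highest fold at 0.37 and *Eif4ebp3*, at -0.45, the lowest after *Eif2b5*. *Eif3b* was at -0.11, so the treated libraries differed little for this gene.

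Of 56 other genes of translation, all kept, 0 were higher and 3 lower in Tam, 3 were higher and 1 lower in DoxTam, and 0 reached 1.5-fold in DoxTam against Tam. The background was 6.98% higher and 3.59% lower in Tam and 4.12% and 5.78% in DoxTam. In DoxTam against Tam it was 2.09% higher and 5.74% lower. These counts lie near or below the background. Their median log2 folds were -0.10 in Tam and -0.02 in DoxTam. *Trib3*, a target of the ATF4 arm of eIF2 phosphorylation, was at 16.9 FPKM in WT, 10.2 FPKM in Tam and 10.8 FPKM in DoxTam (-0.67 and -0.60). It was the only gene of 8 in the list of eIF2 phosphatase and ATF4 response genes to reach 1.5-fold, and *Atf4* itself was at 144, 151 and 171 FPKM. Its GC-adjusted folds were -0.52 and -0.32, both inside 1.5-fold.
The other lower genes in Tam were *Tsfm*, a mitochondrial elongation factor gene, at 45.3 FPKM in WT, 29.0 FPKM in Tam and 33.6 FPKM in DoxTam, and *Larp1*, which binds TOP mRNAs, at 93.7, 62.0 and 69.5 FPKM. *Tsfm* stayed past 1.5-fold GC-adjusted (-0.64) and *Larp1* did not (-0.54). The higher genes in DoxTam were *Mcts1* (9.55, 13.5 and 19.0 FPKM) and *Mcts2* (22.3, 33.6 and 35.4 FPKM), near-identical copies of a reinitiation factor gene that may share reads, and *Eif1a*, a gene of start codon scanning with a close copy, *Eif1ax* (42.1, 62.9 and 74.2 FPKM for *Eif1a*). GC-adjusted log2 folds of these 3 genes in DoxTam were 0.58, 0.51 and 0.45, all inside 1.5-fold. The 11 genes of mTORC1 and MNK signaling, which act on eIF4E and its binding proteins, held 0 genes past 1.5-fold in either comparison, which with 11 genes and the background above says nothing about the list.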

How the data were processed

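RNA-seq of 3 libraries was deposited as 2 tables with 23953 genes each, which compare Tam and DoxTam with WT. The deposited levels are in FPKM, computed by the authors with TopHat, Bowtie (versions not given) and Cufflinks 2.0.0 on mm9, per the labels' processing notes. The authors' columns of fold changes and p-values were not used. The deposited status column, a flag of the authors' test, served only in an alternative. WT levels differed by over 1% between the tables for 2 genes, and 27 names differed, so genes were paired by order with their locus checked.

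Folds are log2((FPKM + 1)/(FPKM + 1)). Genes at 1 FPKM in at least 1 of the libraries compared were kept and called at 1.5-fold. Groups came from the labels. With 1 library per condition no test was run, and counting errors were approximated from estimated fragments. GC content is that of each gene's longest coding transcript in GENCODE (mm9), and its trend was removed by lowess (span 0.2). Of 58 members 56 had a GC value. Alternatives were pseudocounts of 0.1 and 5 FPKM, no filter, filters at 5 and 50 FPKM (the last added after levels were seen), centring, rescaling to the same total with and without 1200 small RNA genes, GC removal, status OK and 2-fold. Members, lists and named genes were chosen with earlier results of these data known. Named genes were every member at 1.5-fold, per complex the gene with the highest WT level and those with the highest and lowest folds among genes at 5 FPKM, members under 1 FPKM, paralog sets, and other translation genes at 1.5-fold. Further members were named to complete their complexes, after their values were seen. The symbols of 4 Argonaute genes and 6 lysine methyltransferase genes on the lists were not found. Marker lists not given in the report were primitive endoderm (6 genes, sums of 3.24, 3.20 and 3.28 FPKM in WT, Tam and DoxTam) and fibroblast (7 genes, 5.18, 3.27 and 2.92 FPKM). The calls at 1.5-fold after GC removal were tested on simulated data, with 2-fold changes planted in more abundant genes. The depth estimate, counting errors, ratios and promoter runs were not tested in this way. Python 3.11.15, pandas 2.3.3, scipy 1.17.1 and statsmodels 0.14.6 were used.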

Additional observations from a re-analysis of the deposited data

Results flagged for a closer look

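*Eif2b5* differed from WT in the library labelled Tam and not in the library labelled DoxTam, with log2 folds of 0.70 and -0.05 that lie on opposite sides of 0. The log2 fold of DoxTam against Tam was -0.75, and with 1 library per condition this difference was not tested. Rescaling to the same total made both folds positive, at 0.84 and 0.31.

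*Snora41*, a small nucleolar RNA gene inside *Eef1b2*, was at 402 FPKM in WT, 753 FPKM in Tam and 1757 FPKM in DoxTam, levels above the control library in a gene that the comparisons of factor genes do not use. Its host *Eef1b2* was at 299, 323 and 288 FPKM. Small RNA genes shorter than the sequenced fragments have uncertain FPKM, and *Mir6399* inside *Eif4g3* was at 364 FPKM in WT and listed at 0 in both treated libraries.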

How the results depend on the processing

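No paired analysis was possible because each condition has 1 library and no test was run. Counts of members past 1.5-fold were the same with a pseudocount of 5 FPKM, no filter, filters at 5 and 50 FPKM, centring, status OK, and rescaling without small RNA genes. With a pseudocount of 0.1 FPKM 2 of 53 genes were lower in DoxTam against WT (*Eif3b* and *Eif4ebp3*), beside 9.25% of all genes. With the GC trend removed 2 of 52 were lower (*Eif3b* and *Eif5b*), beside 2.19% of all genes. Rescaling to the same total gave 11 higher and 0 lower of 53 in DoxTam against WT, beside 22.0% and 1.76% of all genes. In DoxTam against Tam it gave 1 higher and 0 lower, beside 6.02% and 4.30%. The count of 11 lies near the share of all genes and is no result about the members. Median log2 folds of members were then 0.1013 in Tam and 0.3055 in DoxTam against WT, and 0.2032 in DoxTam against Tam. They moved in step with the median of all genes (0.15, 0.32 and 0.17). The 11 were *Eef1a1*, *Eef1e1*, *Eif2a*, *Eif2ak2*, *Eif2s1*, *Eif2s2*, *Eif3e*, *Eif3l*, *Eif4a2*, *Eif4e* and *Eif5*. At 2-fold 0 were higher and 0 lower in Tam, 0 were lower in DoxTam and 0 were lower in DoxTam against Tam. Beside these, 83 count and median values did not move, and of the values of named genes 808 did not move and 161 did, by 0.1 or more on the log2 scale. No called gene changed sign. With about 5910000 to 10800000 fragments, levels below 1 FPKM rest on few fragments. Variation between cultures was not measured.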

Other observations

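*Eif2s3y* was not alone among genes of chromosome Y. E14 is a line from a male embryo, yet of the 14 genes on chromosome Y listed, 1 was above 0 in WT (*Eif2s3y*, 0.107 FPKM) and 0 in Tam and DoxTam. *Ddx3y*, *Kdm5d*, *Uty* and *Usp9y* were listed at 0 in all libraries, while their partners on chromosome X, *Ddx3x* (107, 124 and 153 FPKM), *Kdm5c* (31.0, 30.0 and 29.0 FPKM), *Kdm6a* (14.4, 19.4 and 20.1 FPKM) and *Usp9x* (57.9, 73.7 and 80.3 FPKM), were not. *Xist*, also on chromosome X, was at 6.86 FPKM in WT, 6.83 FPKM in Tam and 9.75 FPKM in DoxTam. These genes were chosen after the value of *Eif2s3y* was seen, and the cause of their levels was not tested.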
